A study of Salmo salar with 16 samples.

Results

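The genes described here build the compartments through which a cell sorts and digests what it takes up, namely endosomes, lysosomes and the vesicles that move between them. They were measured in the spleen of Atlantic salmon fed 4 diets. The members were taken by gene symbol, and no measure of their response to diet entered the rule. The choice was made with earlier results of these data known. A symbol had to begin like that of a Rab or Arf GTPase, a Vps protein, a sorting nexin, a charged multivesicular body protein, clathrin, an adaptor subunit, an EHD protein, a subunit of the vacuolar proton pump (V-ATPase), a cathepsin, a lysosome-associated membrane protein (LAMP), a syntaxin, a VAMP or a subunit of the phagocyte NADPH oxidase. It also had to reach 1 CPM (counts per 1000000, scaled by TMM) in at least 4 of the 16 fish. Of 138 matching symbols 126 passed, out of 79140 named genes, and all 126 were among the 28929 genes tested. The 12 that did not pass were atp6v0a1, which reached 1.27 CPM in 1 fish, and ap1m2, rab38, rab3c, arf3, rab20, rab3b, ap1s3, chmp4c, rab25, rab37 and ctsb, which stayed below 1 CPM in every fish. Relatives that the annotation lists under a locus number in place of a symbol are not members. Among these is the cathepsin B-like gene LOC106611360, with a mean of 757 CPM, so the low ctsb does not give the level of cathepsin B.

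The fish were juveniles of 5.71 g at the start, kept in fresh water, and each diet was represented by the spleens of 4 fish after 37 days. FM was the fishmeal diet. SBM contained 40% soybean meal, and ICJ and ACJ contained 40% soybean meal with 5% of the yeast Cyberlindnera jadinii, which had been heat-inactivated for ICJ and autolysed for ACJ. By the study's formulation, SBM, ICJ and ACJ also held less fishmeal, wheat gluten and starch than FM and no cellulose. They had added lysine, methionine and monocalcium phosphate. In a comparison with FM, soybean meal and these other changes cannot be told apart. The fish came from duplicated tanks, the tank of each fish is not in the labels, so tank and diet cannot be told apart. The labels do not give the age of the fish, and each p-value measures the spread between fish taken as independent.

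Material taken up at the cell surface enters early endosomes, from which receptors are either recycled to the surface or passed on to late endosomes and lysosomes. Clathrin and adaptors shape the vesicles, Rab and Arf GTPases mark compartments and recruit effectors, ESCRT proteins bud receptors into the endosome, retromer and sorting nexins retrieve them, and tethers and SNAREs bring about fusion. The V-ATPase acidifies the lumen in which cathepsins work, and in phagocytes the NADPH oxidase releases superoxide into the phagosome. The spleen of fish filters blood, and its macrophages take up worn red cells and particles through these compartments.

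Total counts per fish ranged from 5032593 to 9100203. The 3 T cell markers in the files summed to between 125 and 160 CPM over all fish, and LOC106606259, the spleen marker of the list (a tlx1-like gene), was at 286 to 464 CPM. The macrophage markers with expression (cd68, mpeg1, mrc1 and LOC106611874) summed to 2411 to 2652 CPM in FM, 2974 to 3691 in SBM, 2733 to 3464 in ICJ and 2507 to 3251 in ACJ, while marco had a count in 3 fish only. The 19 red cell markers summed to 33282 to 68703 CPM in FM against 14134 to 25261 in SBM, with ICJ at 13704 to 59699 and ACJ at 33724 to 37951. In a whole spleen, fewer cells of a type and less RNA per cell cannot be told apart.

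The 126 members together took 0.447 to 0.511% of the counts of a fish. All were detected in every fish. Per length of transcript, as RPKM (CPM per 1000 bases), their median level was 11.5 against 4.64 over all genes tested. The highest levels belonged to vamp3, a SNARE of recycling endosomes, with a mean of 104 RPKM, and ctsa, a lysosomal carboxypeptidase that also stabilises other lysosomal enzymes in mammals, with 103 RPKM. Below these stood snx9, a sorting nexin that acts with clathrin at the cell surface (56.6 RPKM), vatb2, the nucleotide-binding B2 subunit of the V-ATPase (56.2 RPKM), cybb, the catalytic subunit of the NADPH oxidase (54 RPKM), and arf1, a GTPase that recruits coats (52.6 RPKM). At the other end, stx2, a syntaxin of the plasma membrane, had a mean of 0.588 RPKM.

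**Figure D1:**
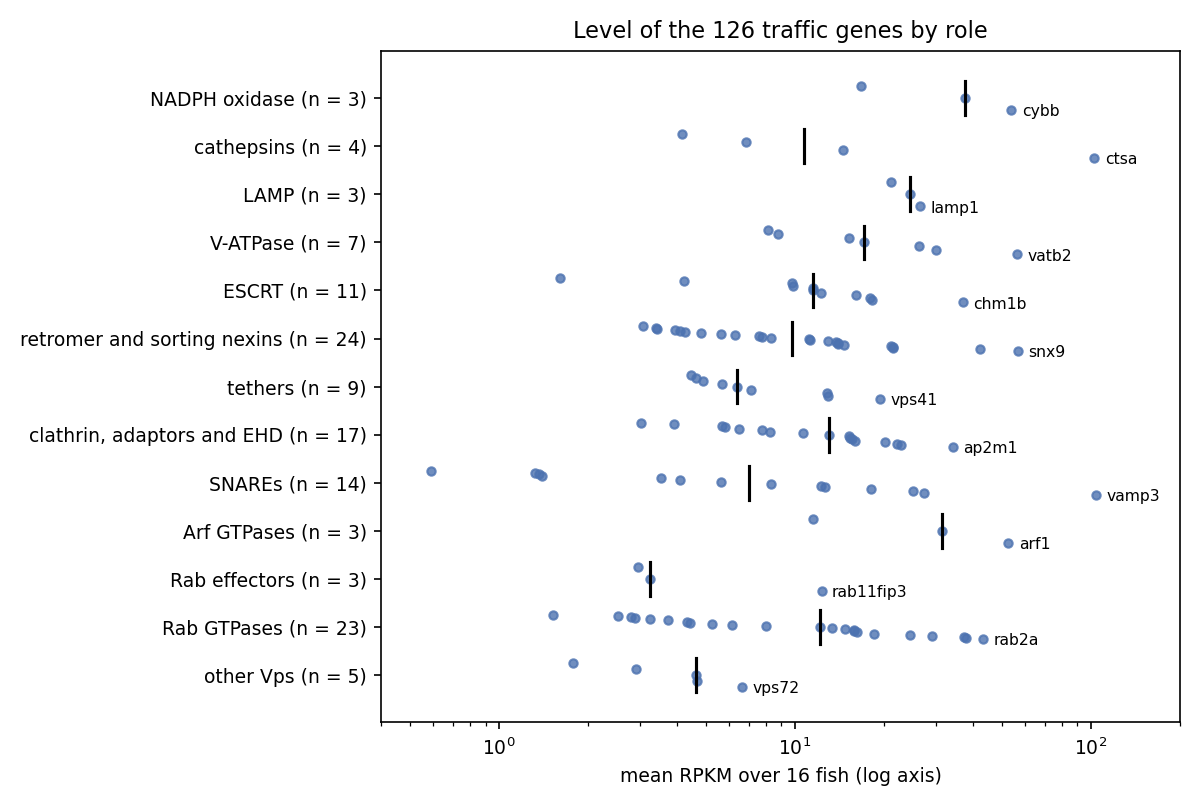
Mean RPKM over 16 fish (log axis) for each of the 126 members, with 1 row per role group, 1 point per gene and a black bar at the group's median. The gene with the highest level is named in each group, and vamp3 (104 RPKM) and ctsa (103 RPKM) stand above all others.

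The role groups overlapped widely in level. The 3 NADPH oxidase genes had the highest median (37.5 RPKM), followed by the 3 Arf GTPases (31.5), the 3 LAMP genes (24.5) and the 7 V-ATPase subunits (17.2). The 23 Rab GTPases had a median of 12.2 RPKM and were led by rab2a (43.4) and rab14 (38.0), which act in transport at the Golgi and at endosomes. The 11 ESCRT genes (median 11.5) were led by chm1b (37.0) and vps28 (18.2), and the 17 genes of clathrin, adaptors and EHD proteins (median 13.0) by ap2m1 (34.2), a subunit of the adaptor of the plasma membrane, and ehd4 (22.9). The 9 tethers (median 6.36 RPKM) were led by vps41 (19.4) and vps11 (13.0), subunits of the complexes that tether endosomes and lysosomes. Among the 5 remaining Vps genes, vps72, whose product is a chromatin protein despite its symbol, was at 6.65 RPKM and vps50 at 4.68 RPKM. The symbols placed the members on 28 chromosomes, with 5 on unplaced sequences and 13 on chromosome 1.

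Most members varied little between fish. The biological coefficient of variation (BCV), the spread between fish of a diet beyond counting error, had a median of 0.112 in the members and 0.148 over all genes tested. Genes of the members' middle range of level, from 13.4 to 51 CPM, had a median of 0.117, close to that of the members. In 101 of the members (80.2%) the highest fish was below 2 times the lowest, against 52.9% of all genes tested. The least variable were vps53 of the GARP tether (BCV 0.0808), ehd3 (0.0822) and vps29, a retromer subunit (0.0827). For arf1 the 16 fish lay within 146.8 and 173.1 CPM.

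A BCV over 0.3 was found in 6 members, named here for that spread after their values were seen, namely stx2, rab3d, ctsc, vps13a, ncf1 and vps45. In vps45, a protein of the Sec1/Munc18 family that works with endosomal syntaxins, the fish fell on both sides of a gap. It was at 9.33 to 13.0 CPM in 11 fish and at 21.1 to 24.7 CPM in the other 5, which were FM replicates 2 and 4, SBM replicate 2 and ICJ replicates 2 and 3. The high fish were thus spread over 3 diets, and all 4 ACJ fish were low. In stx2, 13 fish were at 0.659 to 3.42 CPM and 3 at 0.316 CPM or less. Its lowest count was 1, and 3 counts correspond to 0.331 to 0.598 CPM, so this gap rests on few counts.

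Of the NADPH oxidase, ncf1 and cybb are described, and neither was called by edgeR in any comparison. Expression of ncf1, the organizer subunit p47phox, was 76.1, 110.5, 97.6 and 86.0 CPM in FM, 89.0, 57.2, 57.4 and 60.7 in SBM, 66.9, 44.3, 68.1 and 86.2 in ICJ, and 56.0, 51.5, 68.2 and 171.1 in ACJ. ACJ replicate 4 stood above every other fish, and the groups overlapped. The neutrophil markers csf3r and mmp9 summed to 603 CPM in that fish against 171 to 292 CPM in the 12 fish of the other diets. Only mmp9 stood out there, at 353 CPM against 16.8 to 70.7 CPM in those 12 fish. csf3r was at 251 CPM, within the 154 to 258 CPM of those 12 fish, and lyz was at 0 counts in every fish. The part of these markers in the ncf1 value was not tested. The NADPH oxidase catalytic subunit cybb was higher in each FM fish (77.3 to 97.3 CPM) than in each SBM fish (64.1 to 73.0 CPM), with a log2 fold change of 0.30 ± 0.12 (SE, n = 4) that did not pass the adjustment (edgeR quasi-likelihood test, adjusted p = 0.226; two-sided exact permutation p = 0.0286, the smallest that 4 fish against 4 allow). The ICJ and ACJ fish spanned 71.4 to 107.2 and 66.0 to 89.9 CPM.

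**Figure D2:**
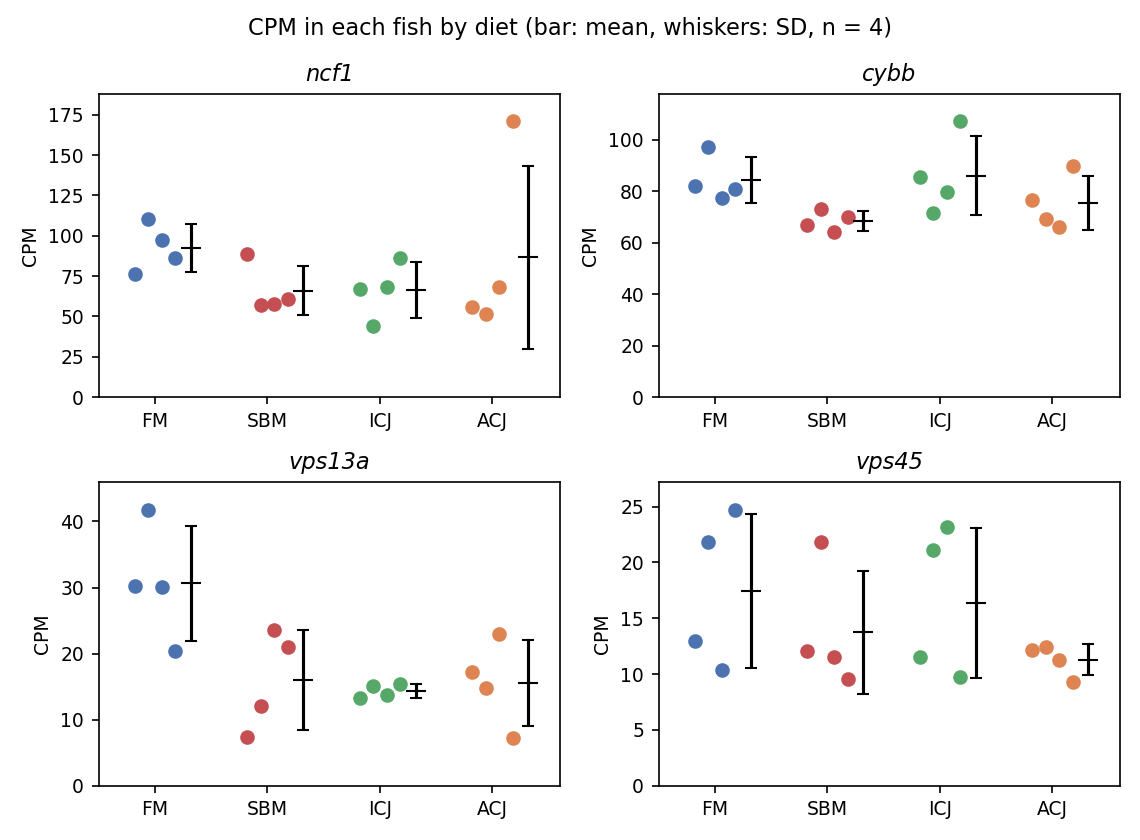
CPM of ncf1, cybb, vps13a and vps45 in each of the 16 fish by diet, with the mean and SD of the 4 fish beside the points. ACJ replicate 4 is at 171 CPM in ncf1, the FM and SBM fish do not overlap in cybb, and in vps45 5 fish lie at 21.1 CPM or more.

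The first comparison, FM|SBM (FM over SBM), addressed how the soybean meal diet differed from the fishmeal control. After adjustment over all 28929 genes, 1 member differed, rab11fip3, against 0.432% of all genes tested (125 genes). Unadjusted, 6 members were higher in FM at p below 0.05 and 7 lower, against 7.5% and 7.22% of all genes, which are similar shares (4.76% and 5.56% of the members). The fish of both diets did not overlap in 4 members higher and 4 members lower in FM, with 4.16% and 4.01% over all genes. The median log2 fold change was 0.03 in the members and 0.01 over all genes, and the median size of the difference was 0.13 and 0.17. DESeq2 called 2 members, rab11fip3 and ctsa, and 2.49% of all genes.

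Expression of rab11fip3 was higher in SBM than in FM. Its product binds Rab11 and holds recycling endosomes near the centre of the cell, and it acts in the last step of cell division in mammals. The gene lies on chromosome 19 (53781709 to 53828543, plus strand, ICSASG_v2). It was at 60.8, 53.3, 63.8 and 59.6 CPM in FM, 83.3, 100.2, 90.8 and 80.6 in SBM, 78.2, 80.7, 67.6 and 62.3 in ICJ, and 72.9, 66.6, 64.6 and 68.5 in ACJ. Every SBM fish was above every FM and ACJ fish, and ICJ overlapped both FM and SBM. The log2 fold change in FM|SBM was -0.58 ± 0.09 (SE, n = 4; edgeR adjusted p = 0.0179; exact permutation p = 0.0286). The call was lost without FM replicate 4, SBM replicate 2 or SBM replicate 3, where the adjusted p was 0.0648, 0.0603 and 0.0593 (edgeR). Against SBM, the yeast diets were lower by values that did not pass adjustment, at -0.30 ± 0.09 for ICJ (edgeR adjusted p = 0.967) and -0.38 ± 0.09 for ACJ (0.602). The other effectors, rab11fip2 and rab3gap1, had log2 fold changes of 0.03 ± 0.13 and 0.22 ± 0.16 in FM|SBM.

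Each diet with soybean meal was compared with the same 4 FM fish, so these comparisons share their controls. In ICJ|FM, edgeR called 0 members and 0.0104% of all genes (3 genes), and 11 members had an unadjusted p below 0.05 against 9.25% of all genes. DESeq2 called 1, ctsa, and 0.280% of all genes. In ACJ|FM, edgeR called 0 members and 0.239% of all genes, and 11 members were higher and 9 lower at an unadjusted p below 0.05, against 7.49% and 7.41%. DESeq2 called 3 members (ctsa, lamp1 and cltb) and 1.60% of all genes. In 10 members every ACJ fish was above every FM fish, which is 7.94% against 3.48% of all genes, and in 3 members every ACJ fish was below (3.57% of all genes). These 10 were ctsa, ctsw, lamp1, lamp1_1, rab11fip3, vps37d, ehd3, vato, snx3 and arf1l, listed after their values were seen. The likelihood ratio test of edgeR called 0 members in both comparisons.

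Taking the diets with soybean meal as a mean over SBM, ICJ and ACJ, written soybean diets|FM, 2 members were called, ctsa and rab11fip3, against 0.996% of all genes (288 genes). Unadjusted, 12 members were higher in the soybean diets and 9 lower, against 7.93% and 8.58% of all genes, so the members again stood near the background. DESeq2 called 5 (ctsa, rab11fip3, ctsw, cltb and vps13a) and 3.0% of all genes. All 12 fish on soybean diets were above all 4 FM fish in 1 member (0.474% of all genes) and below them in 0 (0.280% of all genes).

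**Figure D3:**
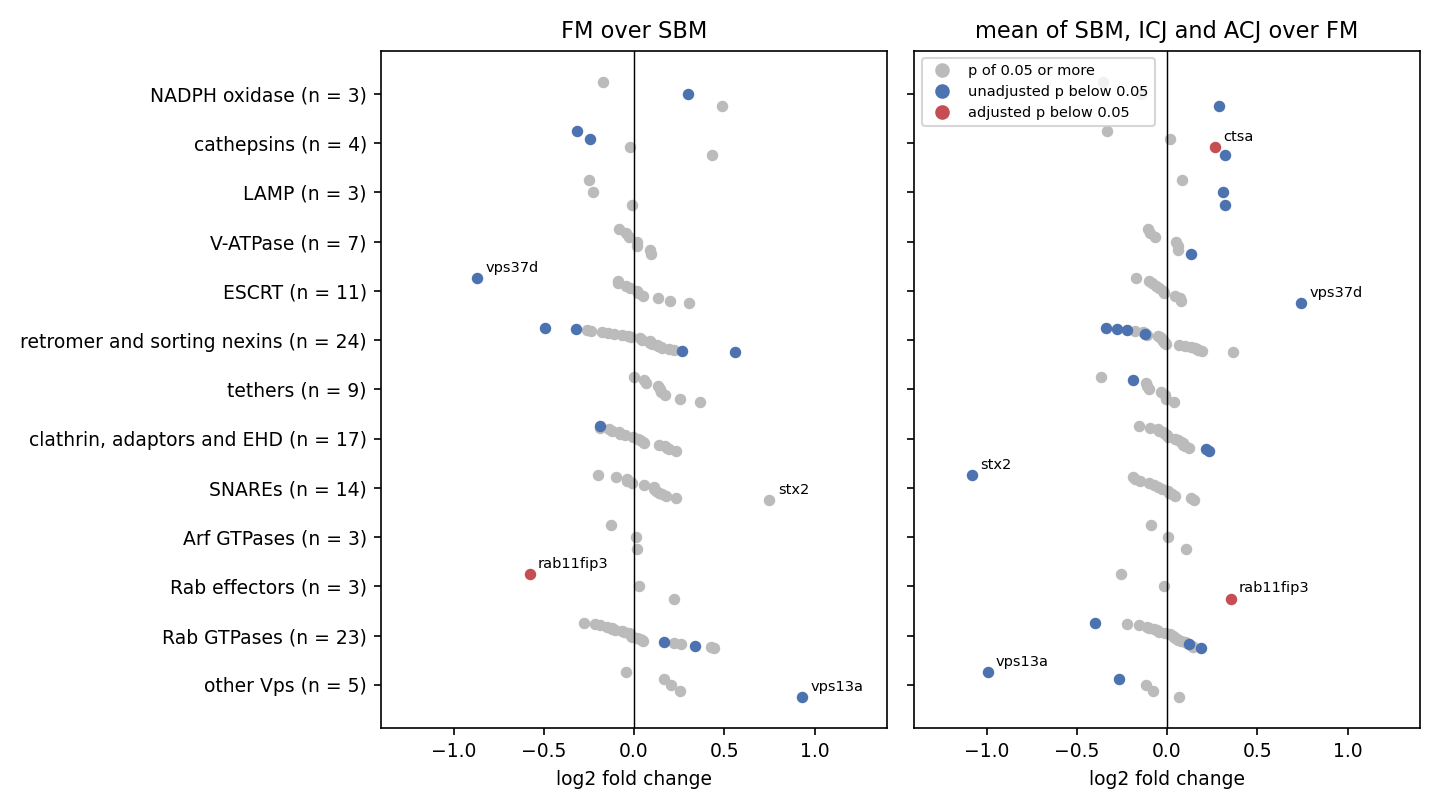
Log2 fold change of each member in FM over SBM (left) and in the mean of the 3 soybean diets over FM (right), by role group. Grey points have an unadjusted p of 0.05 or more, blue points an unadjusted p below 0.05 and red points an adjusted p below 0.05, and the red points are rab11fip3 (-0.58 and 0.35) and ctsa (0.26).

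That member was ctsa, the most abundant cathepsin of the list. The gene lies on chromosome 22 (51221684 to 51241246, minus strand). It was at 263.2, 231.2, 226.0 and 236.0 CPM in FM, 293.1, 285.6, 273.7 and 281.9 in SBM, 300.3, 269.6, 291.7 and 302.4 in ICJ, and 291.6, 300.8, 283.4 and 269.2 in ACJ. The lowest fish on a soybean diet (269.2 CPM) was just above the highest FM fish. The log2 fold change in soybean diets|FM was 0.26 ± 0.05 (SE; 12 fish against 4; edgeR adjusted p = 0.0302), and it was also 0.26 with the 19 red cell genes removed (edgeR adjusted p = 0.0298). That removal leaves the ctsa counts as they were and does not adjust for red cell content. In ctsa each diet alone was higher by about as much, with edgeR adjusted p of 0.0936 for SBM, 0.190 for ICJ and 0.0821 for ACJ against FM. The SBM, ICJ and ACJ fish themselves overlapped, with log2 fold changes of 0.04 ± 0.06 in ICJ|SBM and 0.01 ± 0.06 in ACJ|SBM. Of the 4 macrophage markers tested, mrc1, the mannose receptor, was called in soybean diets|FM (0.55, edgeR adjusted p = 0.00822), FM|SBM (-0.69, 0.00632) and ACJ|FM (0.48, 0.0430). In mrc1 the highest FM fish was at 1058 CPM, and the lowest was at 1309 CPM in SBM, 1160 in ICJ and 1216 in ACJ. The others were not called in soybean diets|FM, with log2 fold changes of 0.34 in LOC106611874 (edgeR adjusted p = 0.0635), 0.16 in mpeg1 and -0.01 in cd68. The summed level of the list overlapped between ACJ and FM, but was higher in every SBM and ICJ fish than in every FM fish. The part of these markers in the ctsa value was not tested. The call for ctsa was lost in 6 of the 16 analyses with 1 fish left out, namely FM replicate 2, 3 or 4, SBM replicate 2 and ACJ replicate 1 or 2 (edgeR adjusted p from 0.055 to 0.151), and by the likelihood ratio test (0.188).

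**Figure D4:**
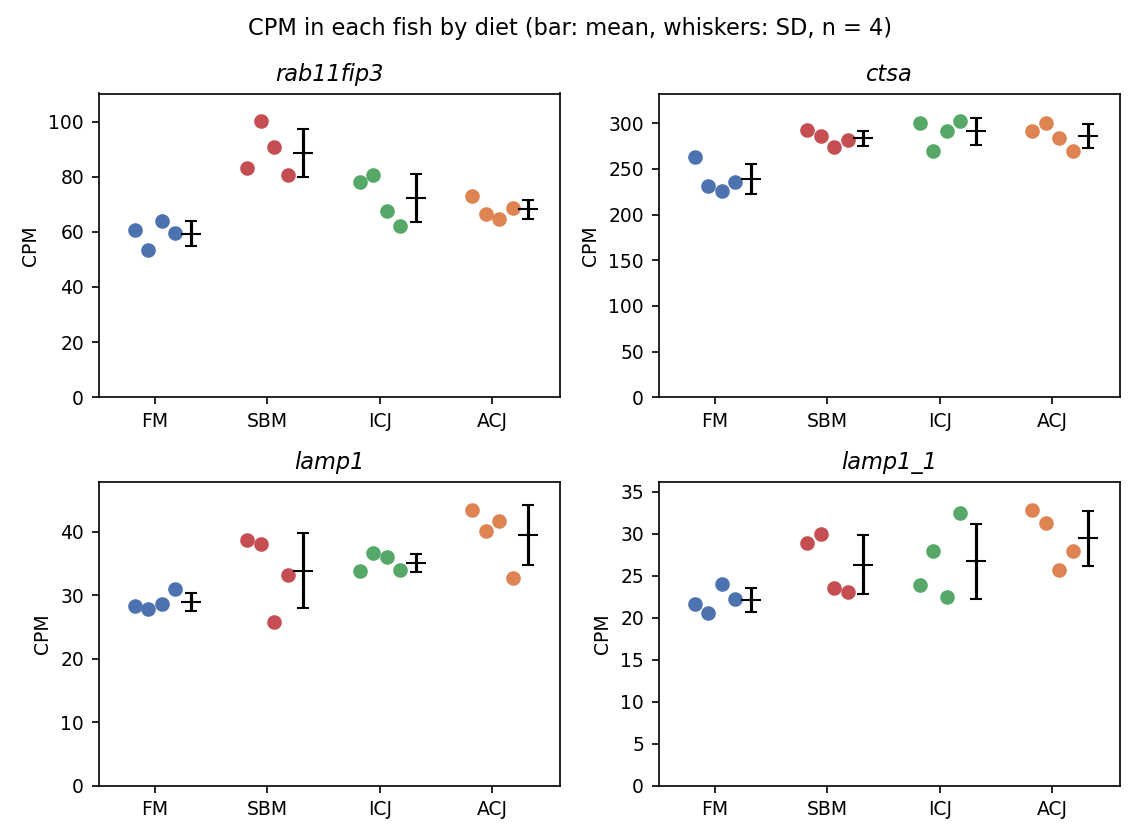
CPM of rab11fip3, ctsa, lamp1 and lamp1_1 in each fish by diet, with the mean and SD of the 4 fish beside the points. The SBM fish lie above the FM and ACJ fish in rab11fip3 (80.6 CPM or more), all soybean diets lie above FM in ctsa, and the ACJ fish lie above the FM fish in both lamp1 genes.

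For rab11fip3 the log2 fold change in soybean diets|FM was 0.35 ± 0.08 (edgeR adjusted p = 0.0359). This call was lost in 8 of the 16 analyses with 1 fish left out (FM replicate 2, 3 or 4, SBM replicate 2 or 3, ICJ replicate 1 and ACJ replicate 1 or 2, with an edgeR adjusted p of 0.054 to 0.120).

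The other cathepsins differed from ctsa in level and pattern. ctsw, a cysteine protease that in mammals is known from cytotoxic lymphocytes, was at 33.8, 34.8, 28.4 and 26.7 CPM in FM, 45, 33.3, 38.7 and 36.9 in SBM, 37.6, 39.7, 40.2 and 36.2 in ICJ, and 37.5, 44.7, 37.1 and 37.1 in ACJ. SBM replicate 2 (33.3 CPM) overlapped FM, and the other fish on soybean diets were above all FM fish. The log2 fold change in soybean diets|FM was 0.32 ± 0.09 with an edgeR adjusted p of 0.0840, and DESeq2 called it (adjusted p = 0.0396). The summed T cell markers had medians of 140 CPM in FM, 143 in SBM, 134 in ICJ and 138 in ACJ. ctso was at 9.12 ± 1.5 CPM in FM and between 8.92 and 9.51 in the other diets. ctsc, which activates granule proteases in mammals, was at 6.17 ± 0.76 CPM in FM, 4.53 ± 2.1 in SBM, 5.36 ± 3.3 in ICJ and 4.70 ± 1.3 in ACJ, and its fish overlapped between all diets.

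The lysosomal membrane proteins lamp1 and lamp1_1 had their highest means in ACJ, without a call against SBM or ICJ by edgeR or DESeq2. The log2 fold changes of lamp1 were 0.22 in ACJ|SBM and 0.17 in ACJ|ICJ (exact permutation p = 0.2 and 0.171). Those of lamp1_1 were 0.16 and 0.14 (exact permutation p = 0.229 and 0.343). lamp1 on chromosome 16 was at 28.3, 27.8, 28.6 and 31.0 CPM in FM, 38.6, 38.0, 25.7 and 33.2 in SBM, 33.8, 36.6, 36.1 and 34.0 in ICJ, and 43.5, 40.1, 41.6 and 32.6 in ACJ. All ICJ and ACJ fish were above all FM fish, and SBM overlapped FM. The log2 fold change in ACJ|FM was 0.45 ± 0.11 (edgeR adjusted p = 0.0908), which DESeq2 called (0.0342), as did edgeR without ACJ replicate 4 (0.54, adjusted p = 0.0394). lamp1_1, on an unplaced sequence, had 22.1 ± 1.4 CPM in FM and 29.5 ± 3.2 in ACJ, with no overlap (log2 fold change 0.41 ± 0.13, edgeR adjusted p = 0.140). The ratio of both copies ranged from -0.22 to 0.41 on the log2 scale over the 16 fish, so neither was the higher in all. Fragments with several matches were not counted, which leaves the split between near-identical copies uncertain. lamp2, another lysosomal membrane protein, was at 119 ± 6.7 CPM in FM and 129 ± 3.5 in ACJ (log2 fold change 0.12 ± 0.07, edgeR adjusted p = 0.440).

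Among the V-ATPase subunits, none was called in any comparison by edgeR or DESeq2. vatb2 was at 126 ± 6.3 CPM in FM, 134 ± 7.5 in SBM, 141 ± 12 in ICJ and 140 ± 10 in ACJ. vato, a proteolipid subunit of the membrane sector, was at 67.3 to 71.7 CPM in FM and 74.1 to 78.8 in ACJ, but ICJ spanned 64.9 to 85.4 CPM. atp6v0c, the other proteolipid subunit, had log2 fold changes of 0.12 ± 0.07 in ICJ|FM and 0.08 ± 0.07 in ACJ|FM. For the 3 copies of the H subunit, the mean level was 15.2 RPKM in vath and 8.78 and 8.12 RPKM in vath_1 and vath_2. The latter lie on unplaced sequences, with lengths of 720 and 307 bases against 1092 in vath. Fragments with several matches were not counted, so the split is uncertain where these copies are near-identical.

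Of the ESCRT genes, vps37d, an ESCRT-I subunit, had the widest differences at the lowest level. It was at 2.31, 1.28, 0.701 and 2.32 CPM in FM and at 3.68, 2.17, 2.60 and 3.58 in SBM, with 1.41 to 3.30 CPM in ICJ and 2.54 to 3.6 CPM in ACJ. All ACJ fish were above all FM fish. Its log2 fold changes of -0.87 ± 0.35 in FM|SBM and 0.83 ± 0.36 in ACJ|FM did not pass adjustment (edgeR adjusted p of 0.246 and 0.280). chmp6, an ESCRT-III subunit, was lower in all ICJ fish (19.8 to 23.0 CPM) than in all SBM fish (24.2 to 27.0 CPM), with a log2 fold change of -0.23 ± 0.11 (edgeR adjusted p = 0.967).

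Retromer and the sorting nexins, grouped by symbol and not all of them partners of retromer, held 24 members and no call. In soybean diets|FM 4 of them were lower at an unadjusted p below 0.05 and 0 higher, namely snx15, snx11, snx5 and vps35, where 8.58% and 7.93% of all genes were lower and higher. snx5, which forms the membrane coat of retromer tubules, was at 29.5 to 38.1 CPM in FM, 27.9 to 31.7 in SBM, 30.2 to 37.6 in ICJ and 21.7 to 30.0 in ACJ. All ACJ fish were below all ICJ fish (log2 fold change -0.37 ± 0.11, edgeR adjusted p = 0.871). Against FM the ACJ value was -0.40 ± 0.11 (edgeR adjusted p = 0.114), and it passed without FM replicate 1 (-0.46, adjusted p = 0.0469). snx15 was at 8.76 to 11.4 CPM in FM and 5.89 to 8.06 in SBM without overlap (0.56 ± 0.18, edgeR adjusted p = 0.161), while ICJ spanned 6.44 to 11.8 CPM. snx3, which recruits retromer to early endosomes, was at 18.1 to 20.1 CPM in ACJ and 17.8 to 18.9 in SBM, and at 9.74 CPM in ICJ replicate 4 against 15.5 to 17.9 in the other ICJ fish. The core subunit vps35, picked after its values were seen, was at 75.2 to 83.2 CPM in FM and 72.6 to 74.5 in SBM, again without overlap (0.13 ± 0.07, edgeR adjusted p = 0.399). snx30, a sorting nexin of endosomes, was at 6.89 ± 2.3 CPM in FM and 9.75 ± 2.3 in SBM, and snx33 had its lowest mean in ACJ (10.5 to 12.9 CPM) with a log2 fold change of -0.41 ± 0.18 against FM (edgeR adjusted p = 0.294).

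All 9 genes grouped as tethers, vps45 included, had a higher mean level in FM than in SBM on the fitted scale. Of these, 0 reached an unadjusted p below 0.05 or a call by DESeq2. Their median log2 fold change was 0.14, against 0.01 over all genes, of which 51% were higher in FM. vps53, picked after its values were seen, was the most uniform, with 23.5 to 26.7 CPM in FM and 21.3 to 22.7 in SBM (0.17 ± 0.09, edgeR adjusted p = 0.392). In ACJ it was at 18.8 to 23.3 CPM, below all FM fish (-0.31 ± 0.09, edgeR adjusted p = 0.129). vps41 and vps11 differed little, with log2 fold changes of 0.00 ± 0.08 and 0.05 ± 0.08 in FM|SBM.

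The clathrin light chain cltb was named after its values were seen. It was at 74.3 to 91.1 CPM in FM, 90.1 to 97.4 in SBM, 87.7 to 104 in ICJ and 90.7 to 110 in ACJ. The log2 fold change in ACJ|FM was 0.30 ± 0.08 (edgeR adjusted p = 0.114, DESeq2 adjusted p = 0.0433). ap2m1 was even across diets, with means of 84.7, 82.9, 82.6 and 84.9 CPM in FM, SBM, ICJ and ACJ. ehd3, which shapes recycling tubules, was at 12.4 to 15.3 CPM in FM and 15.4 to 17.4 in ACJ (0.28 ± 0.11, edgeR adjusted p = 0.231).

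SNAREs, Arf and Rab GTPases held no call by edgeR or DESeq2. vamp3 was at 201.6 to 229.8 CPM in FM and 187.0 to 216.6 in SBM (0.11 ± 0.06, edgeR adjusted p = 0.440). stx11, which in humans is needed for the release of cytotoxic granules, was at 11.2 to 14.4 CPM in SBM and 12.3 to 23.1 in ACJ (0.41 ± 0.17, edgeR adjusted p = 0.712). The fish of all diets overlapped in rab2a, rab14 and arf1. rab12 was at 15.9 ± 2.6 CPM in FM and 12.5 ± 2.3 in SBM, rab42 at 8.33 ± 2.0 CPM in FM and 6.09 ± 0.16 in SBM, and rab37_1 at 76.3 ± 12 CPM in SBM and 60.1 ± 5.6 in ACJ, with overlap between the fish of the diets compared in each.

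vps13a, a lipid transfer protein of organelle contacts whose loss in humans affects the brain and red cells, had the widest difference of the members with a mean of at least 2 CPM. The gene lies on chromosome 24 (30870282 to 30935135). It was at 30.2, 41.8, 30.1 and 20.4 CPM in FM, 7.36, 12.1, 23.5 and 21.0 in SBM, 13.3, 15.2, 13.7 and 15.4 in ICJ, and 17.2, 14.8, 23.0 and 7.21 in ACJ. FM replicate 4 overlapped SBM and ACJ, and all ICJ fish were below all FM fish. The log2 fold change was -1.09 ± 0.35 in ICJ|FM (edgeR adjusted p = 0.349) and -0.99 ± 0.27 in soybean diets|FM (0.0946), and the latter passed with DESeq2 (0.0104) and the likelihood ratio test of edgeR (0.0304). The red cell markers were also lower in the soybean diets, with all 19 of them below FM in the fitted means. So were all 4 B cell markers tested (median log2 fold change -0.57) and the 1 thrombocyte marker (-0.51). Of these red cell, B cell and thrombocyte markers, 0 were called by edgeR in soybean diets|FM. The summed red cell level of ICJ and ACJ overlapped that of FM. Of the 4 macrophage markers, 3 were higher and 1 lower. The part of these markers in the vps13a value was not tested.

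The yeast diets were further compared with SBM and with each other. edgeR called 0 members in ICJ|SBM, ACJ|SBM and ACJ|ICJ, and 0% of all genes. At an unadjusted p below 0.05 there were 5, 6 and 6 members, against 5.00%, 6.90% and 5.67% of all genes. DESeq2 called 0 members in each, with 0.0208%, 0.0173% and 0.0173% of all genes, and the likelihood ratio test of edgeR called 0 members. The median log2 fold change of the members was 0.04 in ICJ|SBM, 0.02 in ACJ|SBM and -0.02 in ACJ|ICJ. Between ACJ and ICJ, rab3gap1, which activates and inactivates Rab GTPases with its partner, was at 9.72 to 14.0 CPM and 13.7 to 16.2 CPM (-0.39 ± 0.16, edgeR adjusted p = 0.871), and its lowest mean was in ACJ.

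Several symbols came in copies, chosen for mention after their values were seen. Atlantic salmon carries many gene pairs from a whole-genome duplication in its ancestry, but the origin of the pairs given here was not tested. As fragments with several matches were not counted, levels are uncertain where copies are near-identical. The copies differed most in level for snx12 and snx12_1 (42.2 and 7.73 RPKM, a ratio of 5.45), vps41 and vps41_1 (19.4 and 6.36 RPKM, 3.05) and ap1s2 and ap1s2_1 (20.1 and 7.76 RPKM, 2.60). In these the same copy was the higher in every fish. vps26a and vps26b, alternative cargo subunits of retromer, were at 11.2 and 5.62 RPKM. Copies on the same chromosome, vps37a and vps37a_1 on 8, were at 11.5 and 12.2 RPKM, and each was the higher in some fish. None of these copies was called by edgeR in any comparison.

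Lysosomal genes with other symbols were examined beside the members. They were matched by symbol with an optional ending, which also brought in gba2 and manbal, not known as lysosomal in mammals. Both are counted in the list and its median, and neither had an unadjusted p below 0.05 in the comparisons given here. Of 29 tested genes for lysosomal enzymes and membrane proteins, 0 were higher and 7 lower in FM than in SBM at an unadjusted p below 0.05, where 7.22% of all genes were lower and 7.5% higher. The 1 call was lgmn (legumain, a protease of lysosomes; log2 fold change -0.41 ± 0.08, edgeR adjusted p = 0.0317), against 0.432% of all genes called. In ACJ|FM 7 were higher and 0 lower (7.49% and 7.41% of all genes), and lgmn was called (0.47 ± 0.08, edgeR adjusted p = 0.0299; 0.239% of all genes). In ICJ|FM 9 were higher and 1 lower (5.29% and 3.96% of all genes). There 0 of the list were called (0.0104% of all genes), with lgmn at 0.34 ± 0.08 (edgeR adjusted p = 0.208). In soybean diets|FM 9 were higher and 1 lower (7.93% and 8.58% of all genes). Called in that comparison (0.996% of all genes) were lgmn (0.41 ± 0.07, edgeR adjusted p = 0.0137) and grn, the progranulin gene (0.35 ± 0.08, 0.0381). The median of the list was 0.13 in soybean diets|FM, against -0.01 over all genes. The macrophage marker mrc1 was called in the same 3 comparisons as lgmn, and was uncalled in ICJ|FM (0.48, edgeR adjusted p = 0.143). The other macrophage markers were not called in soybean diets|FM, at 0.34 in LOC106611874, 0.16 in mpeg1 and -0.01 in cd68, as given with ctsa. The part of mrc1 in the values of this list was not tested. Of 11 genes for sorting and fusion, dab2, a clathrin adaptor for lipoprotein receptors, and its copy dab2_1 were called in FM|SBM (-0.50 ± 0.10 and -0.48 ± 0.10, edgeR adjusted p of 0.0459 and 0.0392) and in soybean diets|FM (0.44 ± 0.09 and 0.43 ± 0.08, 0.0291 and 0.0254). In the same list hook3, epn1 and napa were higher in FM than in SBM at an unadjusted p below 0.05 without being called (0.71, 0.45 and 0.30), and the median of the 11 was 0.06, with 7 above 0. Of 10 autophagy genes and 3 regulators, 0 were called by edgeR, with 2 higher and 0 lower among the former and 1 each way among the latter at an unadjusted p below 0.05 in soybean diets|FM.

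**Figure D5:**
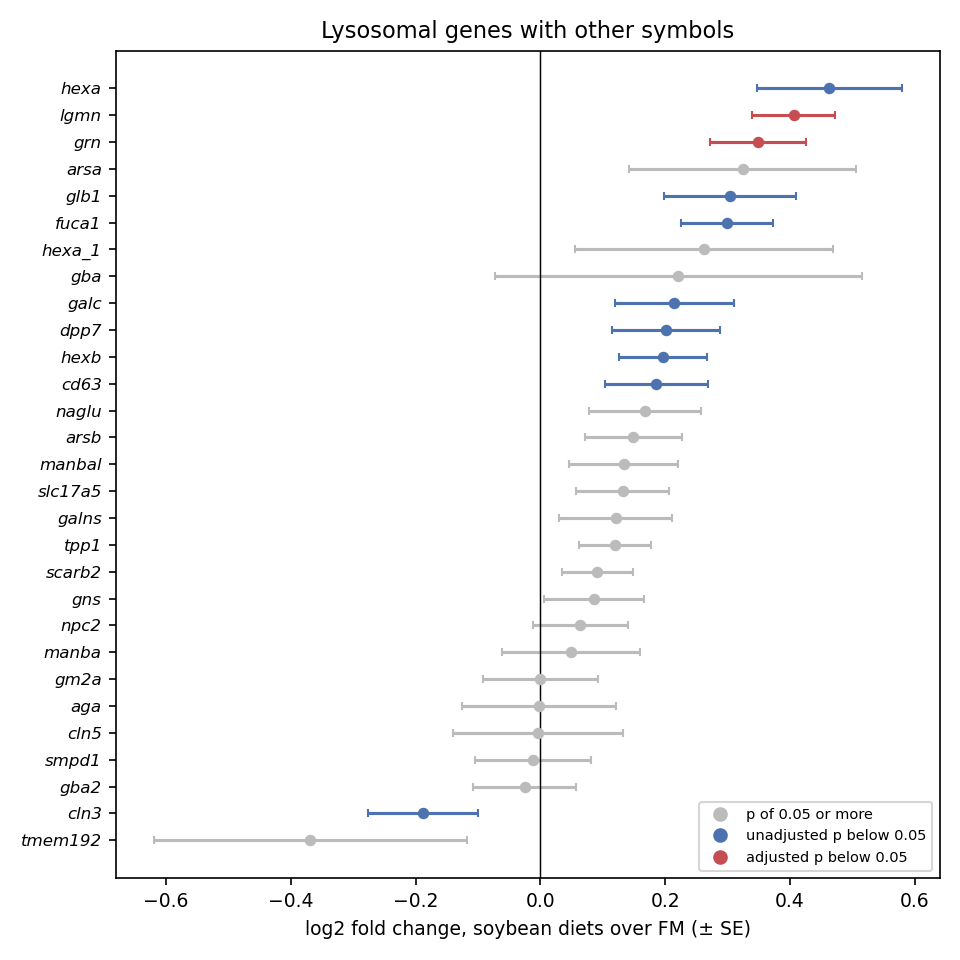
Log2 fold change ± SE in soybean diets over FM for the 29 tested genes of the lysosomal list, which includes gba2 and manbal. lgmn (0.41) and grn (0.35), in red, had an adjusted p below 0.05, blue points an unadjusted p below 0.05, and 23 of the genes lie above 0.

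Further endosome and lysosome genes, most of them under locus numbers, are listed by the study among its differing genes in these same fish. They are therefore not independent evidence. The same holds for the members ctsa, lamp1, vps13a and rab11fip3, which the study also lists. Among the further genes was the clathrin heavy chain gene LOC106567969. It was at 345 to 370 CPM in FM and 414 to 463 CPM in the soybean diets (soybean diets|FM 0.31 ± 0.05, edgeR adjusted p = 0.0108). The sorting nexin 1-like gene LOC106560773 was at 148 to 153 CPM in FM and 171 to 183 CPM in the soybean diets (0.24 ± 0.04, 0.0220), and catk, the gene of cathepsin K, had 0.45 ± 0.09 (0.0302). The LAMP1-like gene LOC106592791 (0.36 ± 0.10, edgeR adjusted p = 0.0804) and the cathepsin B-like gene LOC106611360 (0.29 ± 0.07, 0.0633) were not called. Also uncalled in soybean diets|FM were LOC106590474 (V-ATPase subunit A, 0.263) and LOC106601022 (Rab-5C-like, 0.169). The same held for LOC106609887 (clathrin light chain A-like, 0.218) and LOC106611592 (sorting nexin-5-like, 0.197). These pooled values do not show the means of the single diets, which differed in 2 of these genes without a call between soybean diets. LOC106590474 had means of 36.1 CPM in FM, 36.9 in SBM, 45.8 in ICJ and 48.1 in ACJ. Its edgeR adjusted p was 0.967 in ICJ|SBM and 0.602 in ACJ|SBM. LOC106601022 had its highest mean in SBM (144 CPM), with 121 in FM, 134 in ICJ and 130 in ACJ. For this gene the edgeR adjusted p was 0.967 in ICJ|SBM and 0.721 in ACJ|SBM. The lysosomal-trafficking regulator-like gene LOC106578744 went the other way, lower in the soybean diets and not called (-0.66 ± 0.16, edgeR adjusted p = 0.0681). In LOC106567969 and LOC106560773, as in ctsa, no fish on a soybean diet overlapped the FM fish.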

How the data were processed

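Spleen RNA of 16 fish, 4 per diet, was sequenced in pairs from a stranded mRNA library. Reads were cleaned by the authors in BBDuk and mapped to ICSASG_v2 with HISAT2 2.1.0 and fragments were counted per gene in featureCounts (1.4.6-p1 in the submitters' processing notes, while the file headers name another version), and the deposited values are raw counts, 1 file per fish. Replicate numbers are those of the sample titles, and most headers carry a different library number. By the headers, counting was on the reverse strand and fragments with several matches were not counted. A row without a gene name (0.205 to 0.475% of counts) was left out.

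All else was computed here. Counts were filtered with filterByExpr by diet and scaled by TMM, and 1 model with a mean per diet was fitted to all 16 fish (edgeR 4.0.16 in R 4.3.3, glmQLFit with robust estimation, glmQLFTest). P-values were adjusted by Benjamini-Hochberg over 28929 genes, with a threshold of 0.05. The SE is the absolute log2 fold change divided by the square root of F. Total counts were 5032593 to 9100203 per fish, and 3 counts, the limit that a count of 0 allows, corresponded to 0.331 to 0.598 CPM (counting error only). Exact permutation tests were two-sided, on log2(CPM + 0.5). DESeq2 1.42.0, edgeR's likelihood ratio test, RLE scaling, other filters, only the fish compared, a replicate block, removal of red cell genes and each fish left out in turn were alternatives.

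Named members were those called, the 3 highest and 3 lowest log2 fold changes per comparison at a mean of at least 2 CPM and unadjusted p below 0.05, the 2 highest RPKM per role, all LAMP, cathepsin and NADPH oxidase genes, those the study names, and symbol pairs ending in a and b. The values of 1 member are not reported here. Any other member described was picked after its values were seen, which is not stated each time. The members and lists were chosen with earlier results of these data known. Chromosome numbers came from symbols shared with RefSeq's Ssal_v3.1, at least 85.9% of a sequence's genes matching. Sequences and promoters were not used here.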

Additional observations from a re-analysis of the deposited data

Results flagged for a closer look

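The 4 fish of a diet were examined for a fish far from the others in each of the 47 named members, on the log2(CPM + 0.5) scale, 188 groups in all. Of these, 7 (3.72%) held such a fish, while chance flags about 1 group in 20. ctsw was at 44.7 CPM in ACJ replicate 2 against 37.1 to 37.5 in the other 3 fish (gap to the nearest fish over the range, on that log2 scale, 0.939), and arf1l at 61.2 CPM in ICJ replicate 3 against 67.5 to 68.1 (0.918). snx33 was at 11.3 CPM in FM replicate 4 against 16.9 to 17.7 (0.896), and vps26b at 14.0 CPM in SBM replicate 1 against 16 to 16.3 (0.892). rab14 was at 88.5 CPM in ACJ replicate 1 against 78.4 to 79.6 (0.881), ncf1 at 89.0 CPM in SBM replicate 1 against 57.2 to 60.7 (0.868), and rab12 at 10.9 CPM in ICJ replicate 2 against 14.4 to 15.2 (0.834). No fish was removed.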

How the results depend on the processing

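Of 1065 alternative values for 45 named results, 1038 kept direction and side of the threshold. Most of these results were not called in the main analysis, so staying uncalled counts as kept. The only called ones were rab11fip3 in FM|SBM and soybean diets|FM and ctsa in soybean diets|FM. All 18 alternative values that lost a call belonged to them. The number of members called was 1 in FM|SBM and 2 in soybean diets|FM, and DESeq2 gave 2 and 5, with 1 in ICJ|FM and 3 in ACJ|FM where the main analysis had 0. The cause was not tested. With 1 fish left out, the count ranged from 0 to 2 in FM|SBM, from 0 to 2 in ACJ|FM (2 without FM replicate 1, 1 without ACJ replicate 4) and from 0 to 2 in soybean diets|FM, and remained 0 elsewhere. It was 0 in FM|SBM without FM replicate 4, SBM replicate 2 or SBM replicate 3. It was 0 in soybean diets|FM without FM replicate 2, 3 or 4, SBM replicate 2 or ACJ replicate 1 or 2, and 1 without SBM replicate 3 or ICJ replicate 1. The likelihood ratio test lost ctsa and called vps13a in its place. Only ctso in soybean diets|FM changed direction, with log2 fold changes from -0.058 to 0.108 when 1 fish was left out (-0.058 without FM replicate 1, -0.021 without FM replicate 2, -0.024 without ICJ replicate 4). Fish with the same replicate number did not deviate together on average (mean r = -0.016, against 0.0052 for different numbers, over pairs of fish). Single pairs ranged from -0.216 to 0.297 and from -0.402 to 0.375. The fish were treated as unpaired, but a mean over pairs cannot exclude that some of them were paired. With the replicate block the counts were 1 in FM|SBM, 2 in soybean diets|FM and 0 elsewhere. The number of members was 126 also with CPM on total counts. Depth limits the lowest members, as 3 counts equal up to 0.598 CPM and stx2 and vps37d fell to 0.146 and 0.701 CPM. Promoter motifs were not analysed here.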
